A study of Mus musculus with 9 samples.

Results

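Genes of the splicing machinery and its hnRNP regulators were followed in mouse hepatocytes exposed to acetaminophen (APAP) or to its regioisomer AMAP. The members were all probe sets whose single platform gene symbol begins with Hnrn, Srsf, Sfrs, Sf3 or Snrp, or is Qk, Rnpc3 or Pnn. There were 124 such probe sets of 47 genes, among 12393 named genes and 22626 probe sets that are not array controls. By role they were 50 probe sets of 18 hnRNP genes, 28 of 9 SR protein genes, 22 of 9 genes of the SF3 complex, 15 of 8 genes of Sm and U snRNP proteins, and 9 of Qk, Rnpc3 and Pnn. A further 14 probe sets name a gene of this kind among several symbols and were left out. Qk, Rnpc3 and Pnn were included by name with earlier results of these data known, in which they were among the lowest genes. Their probe sets, called other probe sets below, are counted in the member shares, which are therefore not free of that choice.

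The cells were TAMH, a hepatocyte line of mice carrying a TGF-alpha transgene, listed under strain C57BL/6 and tissue liver. They were exposed to 2 mM APAP, to 2 mM AMAP or to control medium for 2, 6 or 24 h, and each of these 9 groups was measured on 1 Affymetrix 430A_2 array from cells of 2 dishes per treatment. The hydroxyl group of the ring is in para position in APAP and in meta position in AMAP, and the study's title calls the latter less hepatotoxic. All groups share the same line, so that the values describe 1 transformed line and not liver tissue, and no group has a replicate array: differences at 1 time therefore carry no test and no error of their own. Values are log2 units, and a difference of 1 is 2-fold.

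Splicing removes introns from pre-mRNA in the spliceosome, which is built from small nuclear RNAs and proteins. The Sm proteins form a ring on most of these RNAs, the SF3 complex belongs to the U2 particle that recognises the branch site, SR proteins bind exons and mostly favour their inclusion, and hnRNP proteins coat nascent transcripts and often oppose it. Many SR and hnRNP genes are themselves alternatively spliced, and some of their exons send the transcript to decay, so that probe sets of the same gene can read different transcripts. On this array type a name ending in _a_at marks a probe set for several transcripts of a gene, and _s_at or _x_at marks one whose probes can also match other genes. Values of the last 2 kinds are uncertain where near-identical copies exist, as for Hnrnpa1 and its many pseudogenes.

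The members were mostly well expressed. Their mean levels over the 9 arrays ran from 2.74 to 11.60 with a median of 8.29, and 108 probe sets of 44 genes are called expressed here, since their mean reached 5.66, the median over all probe-set means. The other 16 did not, among them both probe sets of Rnpc3, a protein of the U11/U12 particle of the minor spliceosome. All 9 hepatocyte markers looked up on the array reached that median. None of 5 macrophage and none of 5 endothelial markers did, while 1 of 6 stellate cell and fibroblast markers (Dcn) and 3 of 4 cholangiocyte markers (Krt7, Krt19 and Sox9) did.

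The 9 arrays did not read alike, and most of what follows divides along that line. On APAP 6 h, APAP 24 h and AMAP 24 h the middle probe set of the AFFX-r2-Bs-dap control, a bacterial transcript added to the sample and not made by the cells, read lower than its 3′ probe set by log2 ratios of -1.72, -1.58 and -1.94. On the other 6 arrays the ratio lay between -0.60 and -0.44. The AFFX-DapX probe sets of the same transcript did not separate these arrays, with ratios of -1.03, -0.42 and -0.73 against -0.80 to -0.61. The mean ratio over the spiked bacterial transcripts was -0.80 to -0.59 on the 3 arrays and -0.56 to -0.42 on the other 6, and the lower quartile of all probe sets was 3.81 to 3.92 against 3.50 to 3.63. Ratios of the cells' own control transcripts differed on some of the 3. The log2 ratio of the 5′ to the 3′ probe set of Gapdh was 0.049 on APAP 6 h, 0.096 on APAP 24 h and 0.25 on AMAP 24 h, against 0.21 to 0.29 on the other 6. That of the middle to the 3′ probe set of actin was -0.87, -0.52 and -0.64, against -0.63 to -0.47, and that of its 5′ to its 3′ probe set -0.08, -0.28 and -0.13, against -0.47 to -0.27. Their part in the members' values was not tested. Comparisons at 2 h, of AMAP with control at 6 h, and of the compounds at 24 h stay within the 3 or within the other 6 arrays. Comparisons of APAP with control or AMAP at 6 h, and of each compound with control at 24 h, set 1 of the 3 arrays against another, and there the treatment and the array cannot be told apart.

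**Figure D1:**
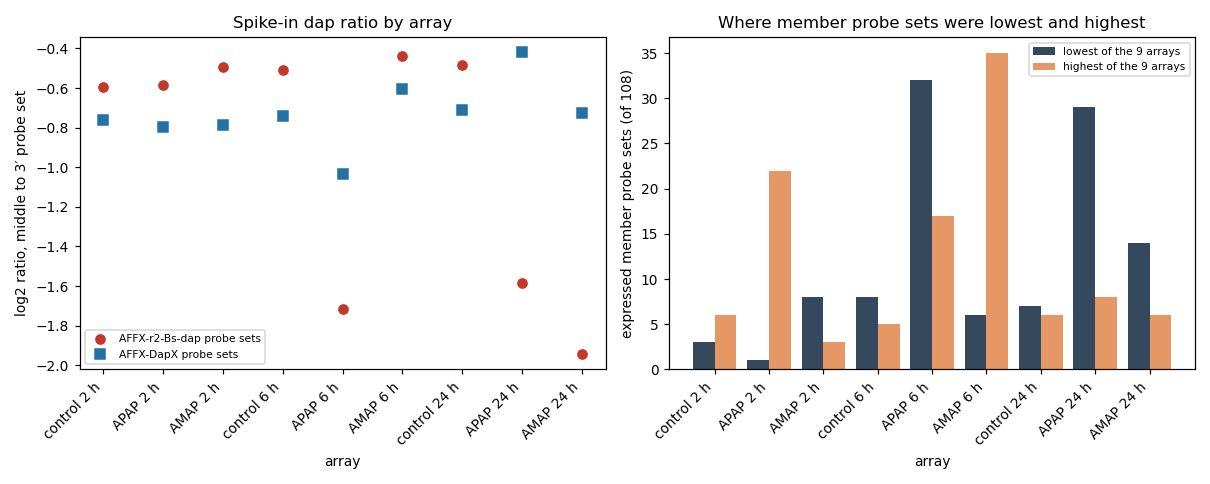
Left, the log2 ratio of the middle to the 3′ probe set of the spiked dap transcript on each of the 9 arrays, circles for the AFFX-r2-Bs-dap and squares for the AFFX-DapX probe sets. Right, the number of the 108 expressed member probe sets that were lowest (dark) or highest (light) on each array; APAP 6 h and APAP 24 h were lowest for 32 and 29, and AMAP 6 h was highest for 35.

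After 2 h no member was 2-fold apart in any comparison, and the Sm and U snRNP proteins read slightly higher in APAP. Probe sets were compared where the brighter array reached 5.65, the median value of the whole table. A probe set that reached this level on only 1 of the compared arrays could be called in 1 direction only. Of 109 such members 0 were 2-fold higher and 0 lower in APAP than in control, where 0.895% and 1.09% of all probe sets were. In AMAP against control 0 of 110 were, with 1.36% of all probe sets higher and 0.391% lower, and in APAP against AMAP 0 of 110, with 0.417% higher and 1.16% lower. The expressed members had a median difference of 0.12 in APAP against control, 79 above 0 and 26 below, where the median over all 11313 expressed probe sets was 0.00. All 12 expressed probe sets of Sm and U snRNP proteins were above 0 in this comparison, with a median of 0.27, and 22 of 28 SR probe sets were, with a median of 0.22. In AMAP the members' median was -0.0012, and all 12 Sm and U snRNP probe sets also read higher in APAP than in AMAP, a comparison that shares the APAP array. None of these differences at 2 h was tested.

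The members at the ends of the 2 h range are named after their values were seen. Snrpd3, an Sm ring protein, read 8.55 in control, 9.49 in APAP and 8.92 in AMAP by 1422884_at, a difference of 0.94 in APAP, while its other expressed probe set 1422885_at differed by 0.21. Hnrnpl, which binds CA-rich RNA, read 7.64, 8.33 and 7.90 by its only probe set. Hnrnpu, a scaffold protein of chromatin and RNA, read 7.64, 6.87 and 7.22 by 1434390_at, whereas its 2 brightest probe sets differed from control by 0.14 and 0.11 in APAP. Hnrnpdl, a relative of the AU-rich element binder Hnrnpd, read 8.38 in control and 7.45 in AMAP by 1424252_at. Apart from Hnrnpl, these values rest on 1 of several probe sets of the gene, and the other expressed ones lay closer to 0.

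**Figure D2:**
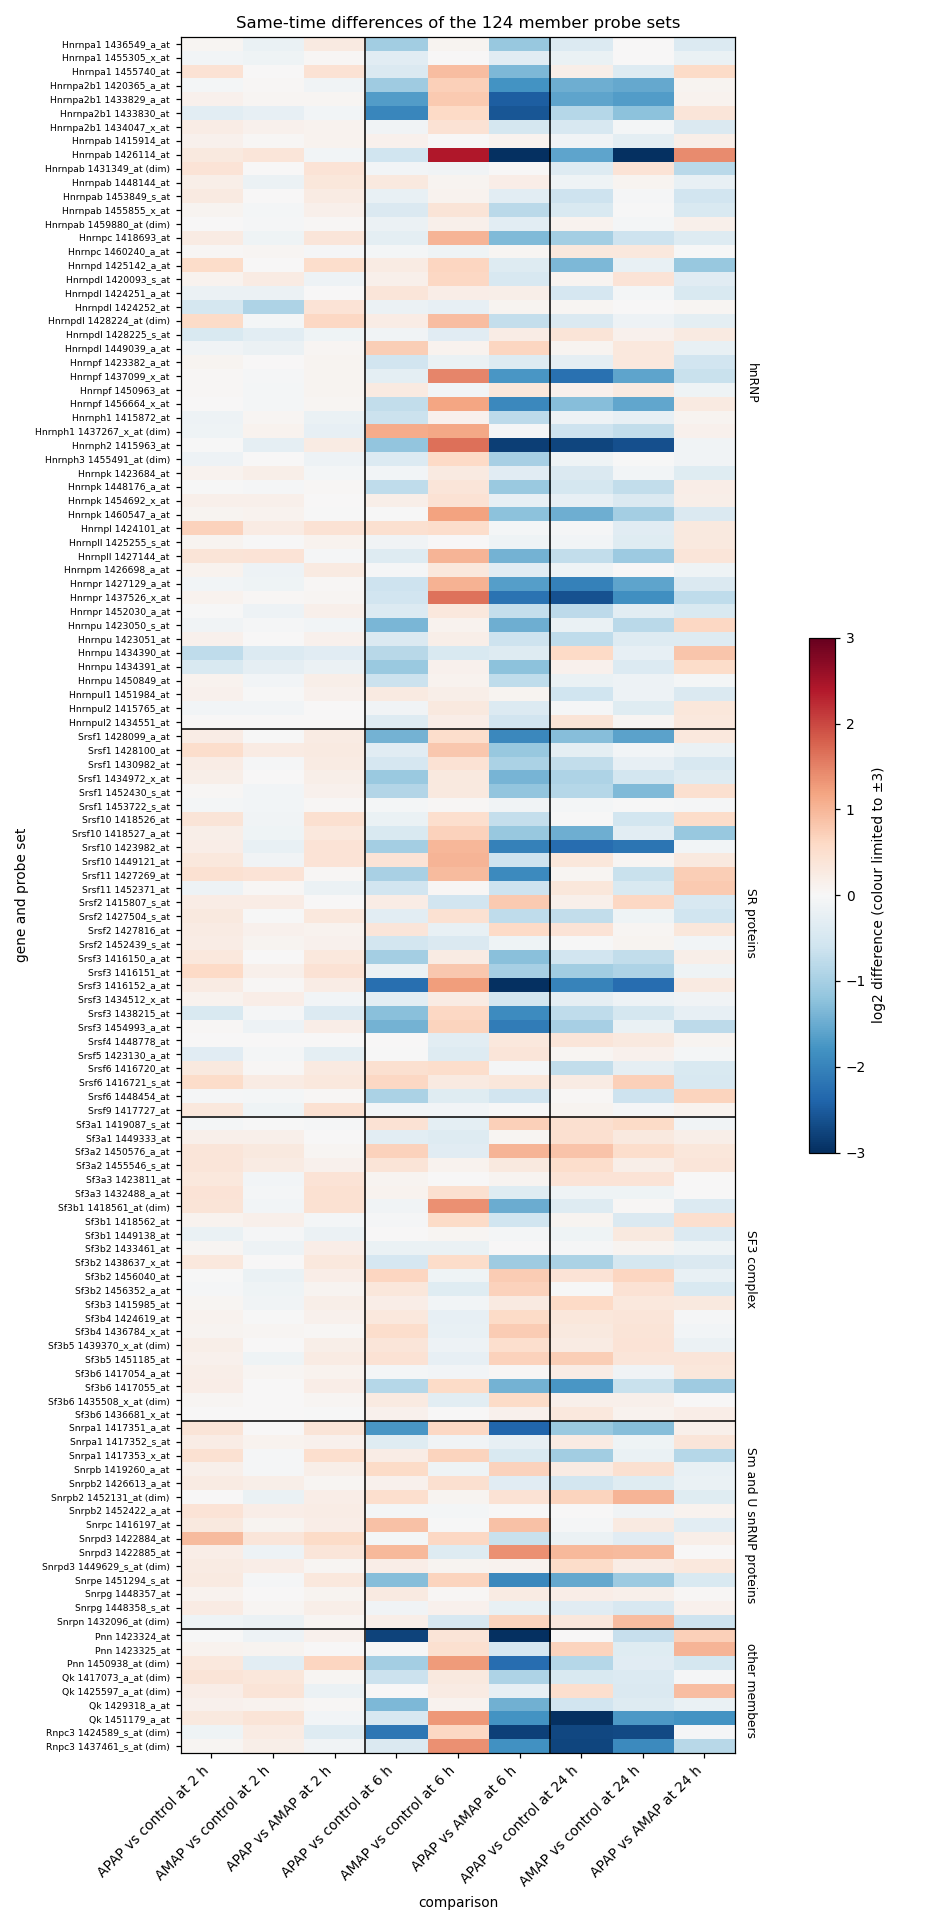
Log2 differences of all 124 member probe sets (rows, grouped by role) in the 9 same-time comparisons (columns), blue lower and red higher in the first-named treatment, with colours limited to 3 log2 either way; probe sets marked dim had a mean under 5.66. The 2 h columns are pale, and the SF3 rows are mostly pale or light red. Blue hnRNP and SR rows lie in the columns of APAP at 6 h and of each compound against control at 24 h. The column of AMAP against control at 6 h holds red ones instead.

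At 6 h in APAP, hnRNP and SR probe sets lay below control in the median, and SF3 probe sets, with 13 of 19 above 0, did not. Of 109 member probe sets, 19 of 11 genes were at least 2-fold lower (17.4%, against 6.75% of all probe sets) and 0 higher (1.69% of all). The 19 were 7 of 45 hnRNP, 7 of 28 SR, 0 of 19 SF3, 2 of 12 Sm and U snRNP and 3 of 5 other probe sets. The last 3 are no independent support, since Qk, Rnpc3 and Pnn were picked with low values known. The medians of expressed probe sets were -0.33 for hnRNP, -0.40 for SR and 0.14 for SF3 proteins, against -0.07 over all expressed probe sets. Genes with at least 2 expressed probe sets 2-fold lower were Srsf3 with 4, Hnrnpa2b1 with 3, and Srsf1 and Hnrnpu with 2 each.

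Srsf3 encodes the smallest SR protein, a factor in splicing and mRNA export, and all 6 of its probe sets were lowest on APAP 6 h, APAP 24 h and AMAP 24 h. By 1416152_a_at it read 7.80, 8.05 and 7.83 at 2 h, 7.07, 4.82 and 8.32 at 6 h, and 7.45, 5.43 and 5.17 at 24 h, in the order control, APAP, AMAP, which is also the order of the values below. The 3 low values stand apart from the other 6, which span 7.07 to 8.32. The difference from control was -2.25 on APAP 6 h, -2.01 on APAP 24 h and -2.28 on AMAP 24 h. The brightest probe set, 1416150_a_at, differed in the same comparisons by -1.02, -0.56 and -0.73, and 1434512_x_at by -0.31, -0.26 and -0.15. The direction was thus shared by all probe sets of Srsf3, and its difference ranged from -0.15 to -2.28.

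Srsf1, the SR protein first known as ASF/SF2, showed the same order in 5 of its 6 probe sets. By 1428099_a_at it read 9.49, 9.72 and 9.48 at 2 h, 9.54, 8.12 and 10.06 at 6 h, and 9.47, 8.18 and 7.86 at 24 h. The exception was its brightest probe set, 1453722_s_at. It read 10.29, 10.23 and 10.21 at 2 h, 10.20, 10.14 and 10.24 at 6 h, and 9.79, 9.73 and 9.77 at 24 h. Its values were close between treatments at each time and lower at 24 h in all of them. Hnrnpa2b1, which binds RNA sorting signals and takes part in splice-site choice, read 9.60, 9.72 and 9.67 at 2 h, 8.98, 7.30 and 9.76 at 6 h, and 9.37, 7.79 and 7.69 at 24 h by 1433829_a_at. Its probe set 1434047_x_at differed by -0.11 for APAP at 6 h, and 1433830_at by -1.97. For Hnrnpu, whose 5 probe sets were all lower in APAP at 6 h, by 0.43 to 1.36 in size, the same probe sets lay between -0.76 and 0.59 in APAP at 24 h.

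Pnn, which encodes pinin, an SR-related protein of the nuclear speckle and the exon junction complex, gave the most negative difference of all members in APAP against control at 6 h, by 1 of its 3 probe sets. By 1423324_at it read 7.87, 7.85 and 7.72 at 2 h, 7.64, 4.86 and 8.02 at 6 h, and 7.54, 7.55 and 6.84 at 24 h, so that APAP 6 h alone was low. The difference there was -2.78, while 1423325_at, at a like level, differed by -0.02, and the dim 1450938_at by -1.01. At 24 h in APAP the differences were 0.0049 by 1423324_at, 0.66 by 1423325_at and -0.86 by 1450938_at.

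**Figure D3:**
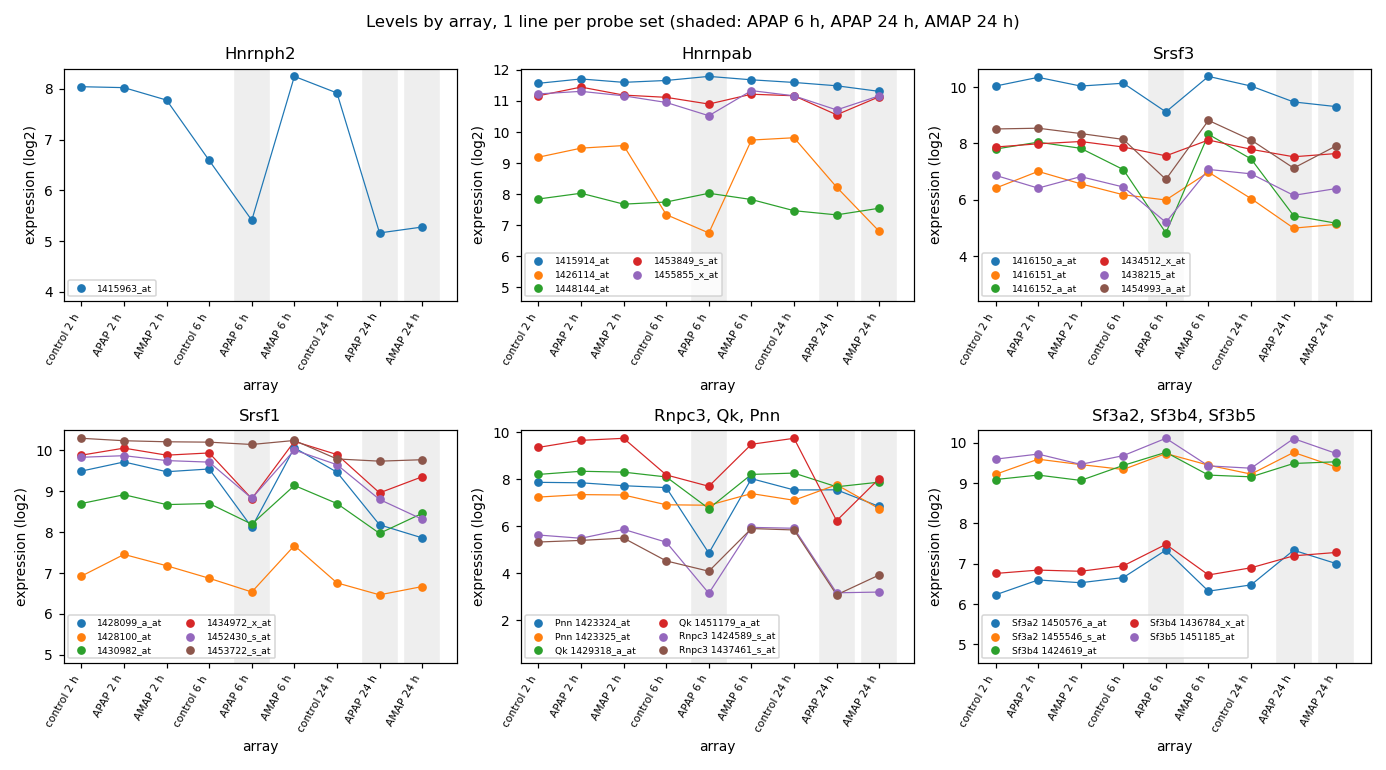
Log2 levels of each probe set of selected genes on the 9 arrays in the order of time and treatment, with APAP 6 h, APAP 24 h and AMAP 24 h shaded; lines only join the points of a probe set. Hnrnph2 and all Srsf3 probe sets were lowest on the 3 shaded arrays, 1415914_at of Hnrnpab stayed near flat, and 1450576_a_at of Sf3a2, 1424619_at of Sf3b4 and 1451185_at of Sf3b5 were highest there, which 1455546_s_at of Sf3a2 was not. The probe set 1453722_s_at of Srsf1 was close between treatments at each time and lower at 24 h in all of them.

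In AMAP at 6 h a number of hnRNP and SR probe sets read higher than in control, SF3 probe sets did not, and the control array of 6 h read low for several of the former. Of 112 member probe sets, 14 of 12 genes were at least 2-fold higher (12.5%, against 2.54% of all probe sets) and 0 lower (0.247% of all), 9 of them hnRNP, 2 SR, and 3 of Qk, Rnpc3 or Pnn. None of 19 SF3 and none of 12 Sm and U snRNP probe sets was among them. The Rnpc3 probe set among the 14, the dim 1437461_s_at, was compared through the AMAP array alone, at 5.90 against 4.53 in control. The expressed members had a median of 0.25, against -0.07 over all, and the SF3 probe sets one of -0.08, with 11 of 19 below 0. Hnrnpab, a CArG-box and RNA binding hnRNP, read 9.19, 9.48 and 9.56 at 2 h, 7.34, 6.75 and 9.74 at 6 h, and 9.82, 8.23 and 6.80 at 24 h by 1426114_at. Its difference in AMAP at 6 h was 2.40, and the control of 6 h was itself 1.85 below the control of 2 h. The other 4 expressed probe sets of Hnrnpab differed by 0.02 to 0.38. Hnrnph2, an X-linked hnRNP that binds G-rich runs, differed by 1.66, and Hnrnpr, a relative of the RNA transport factor Syncrip, by 1.63 in 1437526_x_at and 1.04 in 1427129_a_at. Hnrnpf, also a G-run binder, differed by 1.46 in 1437099_x_at and 1.19 in 1456664_x_at, both _x_ probe sets, and by -0.19 and -0.07 in the other 2.

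The controls show how far these probe sets differed between arrays without a compound. Control at 6 h against control at 2 h had 6 of 110 member probe sets, of 5 genes, at least 2-fold lower (5.45%, against 1.23% of all probe sets) and 0 higher (0.499% of all). Control at 24 h against 6 h had 8 of 111, of 7 genes, higher (7.21%, against 1.78%) and 0 lower (0.386%). Control at 24 h against 2 h had 0 in both directions, with 0.837% of all probe sets higher and 0.105% lower. The 6 were Hnrnpab, Hnrnph2, Hnrnpk, Qk and both _x_ probe sets of Hnrnpf, so that control 6 h was low for probe sets that were also low on APAP 24 h and AMAP 24 h, although its dap ratio of -0.51 lay among those of the other arrays.

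Of the 3 times, 6 h had the most members apart between the compounds, at the matched dose of 2 mM. Of 112 member probe sets, 39 of 22 genes were at least 2-fold lower in APAP than in AMAP (34.8%, against 11.7% of all probe sets) and 2 were higher (3.83% of all). They were 18 of 46 hnRNP, 11 of 28 SR, 2 of 19 SF3, 2 of 12 Sm and U snRNP and 6 of 7 other probe sets. The dim ones among the 6, both of Rnpc3 and 1450938_at of Pnn, were compared through the AMAP array alone and could only be called lower in APAP. Srsf3 by 1416152_a_at was 11.3-fold lower in APAP, Pnn by 1423324_at 8.96-fold and Hnrnpab by 1426114_at 7.94-fold. The 2 higher were Snrpd3 by 1422885_at, at 5.91 in control, 6.89 in APAP and 5.52 in AMAP, and Sf3a2 by 1450576_a_at, at 6.66, 7.34 and 6.32. Sf3a2 is a subunit of the SF3A part of the U2 particle. Both share the APAP and AMAP arrays with the differences from control above.

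At 24 h the medians of hnRNP and SR probe sets lay below control with both compounds, and that of SF3 probe sets above it. APAP had 23 of 111 member probe sets, of 16 genes, at least 2-fold lower (20.7%, against 6.04% of all probe sets) and 0 higher (3.12% of all). AMAP had 20 of 110, of 14 genes, lower (18.2%, against 4.89%) and 0 higher (0.684%). In APAP these were 11 of 46 hnRNP, 5 of 28 SR, 1 of 19 SF3, 3 of 12 Sm and U snRNP and 3 of 6 other probe sets, and in AMAP 11 of 46, 4 of 27, 0 of 19, 2 of 12 and 3 of 6. The median over expressed hnRNP probe sets was -0.41 in APAP and -0.29 in AMAP, over SR probe sets -0.28 and -0.26, and over SF3 probe sets 0.31 and 0.30, against 0.07 and 0.06 over all expressed probe sets. Within SF3 the values differed in sign: Sf3b6, the SF3B subunit that contacts the branch point, read -1.74 in APAP and -0.68 in AMAP by 1417055_at, and 1438637_x_at of Sf3b2 read -0.95 and -0.52. The differences between these families were not tested. The comparisons share the control array of 24 h, and 17 probe sets of 13 genes were 2-fold lower in both. This overlap was not counted over all probe sets, so the 17 have no share to be read against.

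Qk encodes quaking, a STAR-family RNA binder that controls splicing and mRNA stability. By 1451179_a_at it read 9.35, 9.65 and 9.74 at 2 h, 8.18, 7.70 and 9.48 at 6 h, and 9.74, 6.24 and 8.02 at 24 h, so that APAP 24 h was the lowest array and AMAP 24 h and both low arrays of 6 h lay between it and the rest. This is an 11.3-fold lower value in APAP than in control at 24 h. By 1429318_a_at Qk read 8.20, 8.34 and 8.30, then 8.09, 6.75 and 8.20, then 8.26, 7.68 and 7.87, where the lowest array was APAP 6 h and the difference at 24 h was -0.58. The 2 dim Qk probe sets differed by -0.45 and 0.50.

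Hnrnph2 read 8.04, 8.03 and 7.78 at 2 h, 6.59, 5.41 and 8.25 at 6 h, and 7.92, 5.16 and 5.28 at 24 h by its only probe set. The 3 lowest arrays were again APAP 24 h, AMAP 24 h and APAP 6 h, followed by control 6 h, and the differences at 24 h were -2.76 in APAP and -2.64 in AMAP. Rnpc3 read 5.63, 5.49 and 5.87 at 2 h, 5.32, 3.15 and 5.95 at 6 h, and 5.91, 3.17 and 3.20 at 24 h by 1424589_s_at. Its second probe set, 1437461_s_at, read 5.33, 5.40 and 5.49, then 4.53, 4.09 and 5.90, then 5.84, 3.09 and 3.93. Both probe sets of Rnpc3 were 2-fold lower at 24 h in either compound, at levels close to the dim end of the array, where differences are compressed. Neither is called expressed by its mean. At 24 h only the control array, at 5.91 and 5.84, reached the level for comparison, so that they could only be called lower. Both are among the 3 other probe sets counted as lower with each compound at 24 h. Hnrnpr differed at 24 h by -2.60, -2.02 and -0.79 in APAP and by -1.84, -1.59 and -0.33 in AMAP. Srsf10, an SR-like protein that acts as a splicing repressor when dephosphorylated, differed by -2.28 and -2.20 in 1423982_at and by 0.34 and 0.05 in 1449121_at.

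Against each other at 24 h the compounds differed in few members. Of 104 member probe sets, 4 were at least 2-fold lower in APAP than in AMAP (1.67% of all probe sets were) and 2 were higher (2.08% of all). The lower ones were Qk by 1451179_a_at (-1.79), Hnrnpd by its only probe set (-1.14), Srsf10 by 1418527_a_at (-1.13) and Sf3b6, the branch-site contacting p14 subunit, by 1417055_at (-1.07). The higher ones were Hnrnpab by 1426114_at (1.42) and Pnn by 1423325_at (1.02). No gene had 2 expressed probe sets 2-fold apart the same way here, and the expressed members had a median of -0.05 against 0.02 over all.

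**Figure D4:**
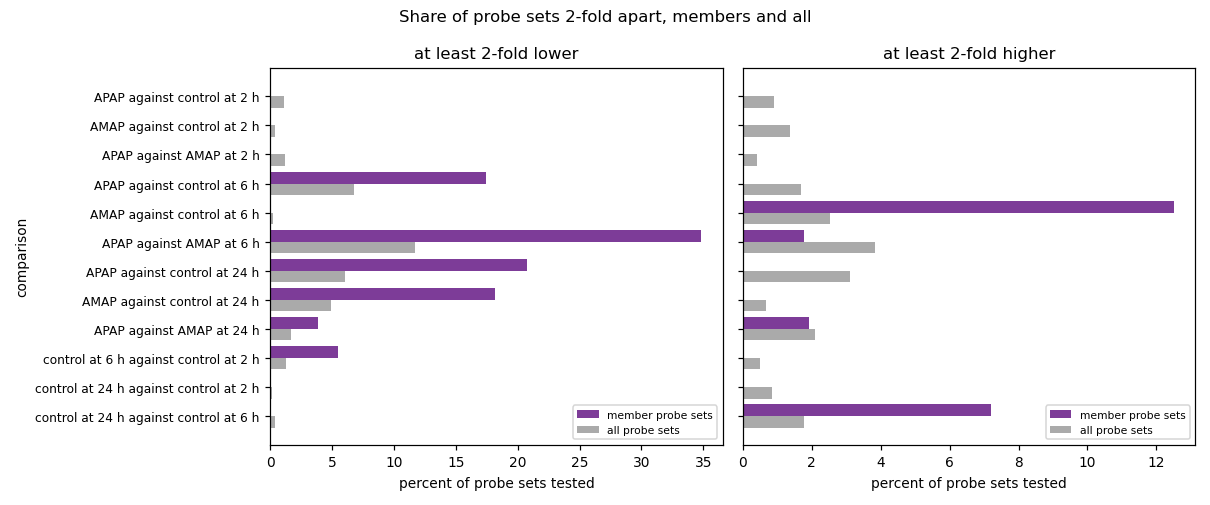
Percent of probe sets at least 2-fold lower (left) and 2-fold higher (right) among the members (purple) and among all probe sets (grey) in the 9 same-time comparisons and between the controls. The members' share of lower probe sets was 17.4% to 34.8% in the 4 comparisons that set 1 of APAP 6 h, APAP 24 h and AMAP 24 h against another array, and was highest for higher probe sets at 12.5% in AMAP against control at 6 h.

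Across all 9 arrays the same order of levels was found in many hnRNP and SR probe sets, and the opposite order in 7 of 19 SF3 probe sets. APAP 6 h, APAP 24 h and AMAP 24 h were all below the other 6 arrays in 36 of 108 expressed member probe sets (33.3%, against 13.3% of all), of 18 genes. These were 16 of 45 hnRNP, 13 of 28 SR, 2 of 19 SF3, 3 of 12 Sm and U snRNP and 2 of 4 other probe sets. The same 3 arrays were all above the other 6 in 10 (9.26%, against 13.4% of all), of 9 genes, of which 7 were SF3 probe sets. The 2 SF3 probe sets lowest on the 3 arrays were 1438637_x_at of Sf3b2 and 1417055_at of Sf3b6, and the other 10 had neither order. In 21 (19.4%, against 7.2% of all) the 3 arrays were lowest and control 6 h was the next lowest. Between the compared arrays, 8 probe sets of 7 genes were 2-fold lower on each of APAP 6 h, APAP 24 h and AMAP 24 h than on the control of the same time. They belonged to Srsf1, Srsf3, Srsf10, Hnrnpa2b1 (both 1420365_a_at and 1433829_a_at), Hnrnph2, Snrpa1 and Snrpe. The same count was not made over all probe sets, so these 8 have no share to be read against. Snrpa1 encodes the U2 A′ protein and Snrpe a protein of the Sm ring, which read 10.79, 11.07 and 10.76 at 2 h, 10.30, 9.03 and 10.97 at 6 h, and 10.72, 9.18 and 9.64 at 24 h by its only probe set.

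Members of the SF3 complex were among those with the opposite order. Sf3b5, a small SF3B subunit, read 9.60, 9.72 and 9.47 at 2 h, 9.68, 10.11 and 9.43 at 6 h, and 9.37, 10.10 and 9.74 at 24 h by 1451185_at. Sf3b4, an SF3B subunit that binds RNA near the branch site, read 9.09, 9.20 and 9.07, then 9.44, 9.76 and 9.20, then 9.16, 9.49 and 9.53 by 1424619_at. In both the 3 highest arrays were APAP 6 h, APAP 24 h and AMAP 24 h, by less than 2-fold. Members with a small range were found in every large group: Snrpg by 1448357_at spanned 0.27 over the 9 arrays, Sf3b2 by 1433461_at 0.29, Hnrnpc by 1460240_a_at 0.32 and Srsf4 by its only probe set 0.38. The median range was 0.90 for expressed members and 0.83 for all expressed probe sets.

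Probe sets of the same gene often disagreed at 6 and 24 h. A gene was counted as disagreeing where the differences of its expressed probe sets lay at least 1 log2 apart, over the 30 member genes and 2531 genes in all that had at least 2. The gap between the lowest and the highest can only widen with more probe sets, of which Srsf1 and Srsf3 had 6 each. The number of probe sets per gene was not matched between members and all genes, which limits every comparison of these shares. At 2 h the share was 3.33% of member genes in APAP against control, which is Srsf3, and 3.33% in AMAP, which is Hnrnpdl, against 0.395% and 0.711% of all genes. For APAP against control it was 30.0% at 6 h and 53.3% at 24 h, where 19.6% and 19.3% of all genes disagreed. For AMAP against control it was 26.7% at 6 h and 40.0% at 24 h, against 8.69% and 17.9%. For APAP against AMAP it was 0% at 2 h, 63.3% at 6 h and 26.7% at 24 h, against 0.316%, 32.6% and 8.97%. In any of the 9 comparisons 22 of the 30 (73.3%) disagreed. No share over all genes was taken for this count. Exact binomial 95% intervals for the members' shares ran, for example, from 34.3% to 71.7% for APAP at 24 h, and cover only the number of genes. The gaps were widest for Hnrnpab (3.19, APAP against AMAP at 6 h), Srsf3 (2.94, same comparison), Qk (2.92, APAP at 24 h), Pnn (2.76, APAP at 6 h) and Srsf10 (2.63, APAP at 24 h).

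A second probe set nonetheless followed in part of the genes. Of the member genes with a probe set 2-fold apart and another expressed one, another differed the same way by at least 0.5 log2 in 4 of 9 at 6 h and 10 of 12 at 24 h in APAP against control, and in 4 of 9 and 7 of 11 in AMAP against control. Over all genes, which were not matched to the members in probe sets per gene, this was 49.0%, 45.3%, 38.6% and 35.9%. For APAP against AMAP it was 12 of 20 at 6 h and 1 of 5 at 24 h, against 49.5% and 37.3%. The share 2-fold lower among the brightest probe set of each gene, beside that among its others, was 11.4% beside 21.5% on APAP 6 h, 19.6% beside 21.5% on APAP 24 h, and 13.0% beside 21.9% on AMAP 24 h. These shares were not tested against each other.

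**Figure D5:**
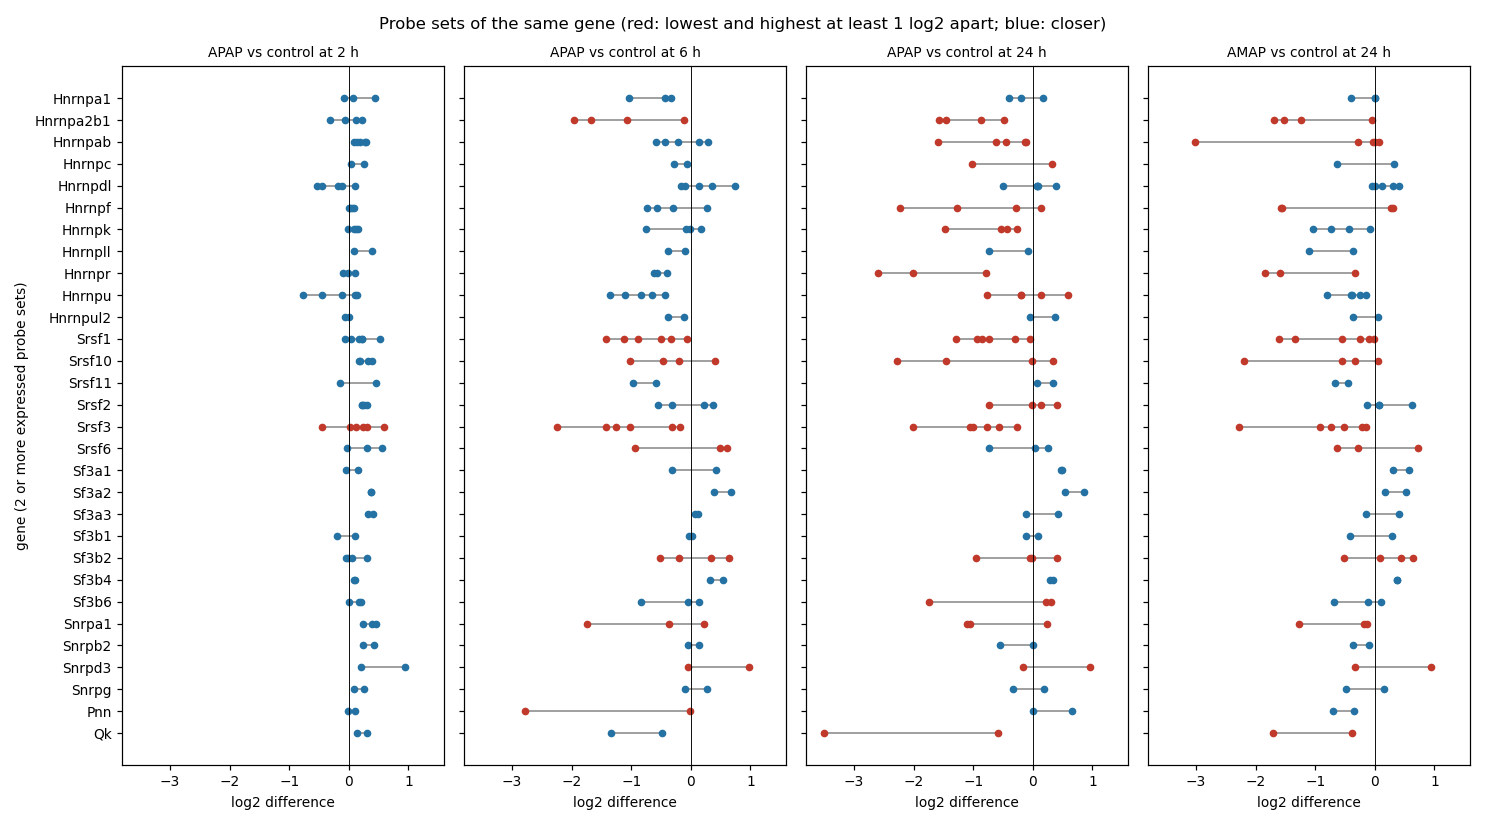
Log2 differences of every expressed probe set of the 30 member genes that have at least 2, in 4 comparisons with control; a grey bar joins the probe sets of a gene, and red marks genes whose lowest and highest lie at least 1 log2 apart. Red genes number 1 of 30 on APAP 2 h, 9 on APAP 6 h, 16 on APAP 24 h and 12 on AMAP 24 h.

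Effects shared by the 3 times were tested with limma over the 11313 expressed probe sets, with time as a block. The times are the only repeats of a treatment, so a change of its effect over time counts as error here. An effect present at only some times thus widens its own error. No probe set passed a Benjamini-Hochberg adjusted p of 0.05 in any of the 3 contrasts, and the smallest adjusted p was 0.625 for APAP against control, 0.9998 for AMAP against control and 0.867 for APAP against AMAP. At an unadjusted p under 0.05 there were 5 of 108 members for APAP against control (7.68% of all expressed probe sets), 1 for AMAP against control (0.407%) and 2 for APAP against AMAP (3.89%). The 5 were both probe sets of Sf3a2, with differences of 0.64 (SE 0.22) and 0.44 (SE 0.16), Snrpd3 by 1422885_at (0.72, SE 0.30), Srsf6 by 1416721_s_at (0.47, SE 0.20) and Srsf3 by 1438215_at (-0.82, SE 0.31). For APAP against AMAP, Qk by 1451179_a_at had a mean difference of -1.22 with an SE of 0.65, so that the compounds were neither shown to differ nor shown to act alike in it.

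The levels were also set against the spiked dap ratio of each array, in limma fits with treatment and time. With the AFFX-DapX ratio, the covariate of the design, 0 probe sets passed an adjusted p of 0.05, and 13 of 108 members (12.0%, against 9.15% of all) had an unadjusted p under 0.05. Pnn by 1423324_at had the smallest, with a slope of 5.10 log2 per log2 unit of ratio (SE 1.02, adjusted p = 0.462). With the AFFX-r2-Bs-dap ratio, chosen after the data were seen because it separates the 3 arrays, 110 probe sets (0.972%) passed, 108 of them with a positive slope, which means lower levels where the ratio was low. Of these, 4 were members: Srsf3 by 1416152_a_at (slope 2.13, SE 0.28, adjusted p = 0.0430), Hnrnpa2b1 by 1433829_a_at (1.51, SE 0.21, adjusted p = 0.0430) and by 1420365_a_at (1.16, SE 0.19, adjusted p = 0.0466), and Srsf1 by 1428099_a_at (1.33, SE 0.19, adjusted p = 0.0430). The next smallest was Srsf1 by 1452430_s_at (0.93, SE 0.16, adjusted p = 0.0504). An unadjusted p under 0.05 was found for 40 of 108 members (37.0%, against 23.8% of all).

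Those 4 calls depend on single arrays. None of the members passed without control 2 h, APAP 2 h, APAP 6 h, AMAP 6 h, control 24 h or AMAP 24 h, while 8 passed without AMAP 2 h, 9 without control 6 h and 17 without APAP 24 h. Of all 11313 expressed probe sets, 266 passed without AMAP 2 h, 174 without control 6 h, 417 without APAP 24 h and 11 without control 2 h. With the AFFX-r2-Bs-dap ratio as a covariate in the fit of shared effects, the median over expressed members turned from -0.12 to 0.07 in APAP against control and from 0.01 to 0.14 in AMAP against control, and 0 members passed. The ratio is low on exactly 3 of the 6 exposed arrays and on no control, so the slope and an effect of exposure that begins at 6 h in APAP and 24 h in AMAP cannot be told apart.

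Other genes of the splicing machinery were looked up from 2 lists, of core components and of regulators. Of the other spliceosome core, 62 listed genes were on the array, with 103 expressed probe sets. Probe sets 2-fold lower than control were 8 of 109 on APAP 6 h, 6 of 107 on APAP 24 h and 5 of 106 on AMAP 24 h, near the shares of all probe sets given above. Of other splicing regulators, 54 genes were on the array, and 20 of 119, 21 of 129 and 22 of 127 probe sets were lower. These were 16.8%, 16.3% and 17.3%, against 6.75%, 6.04% and 4.89% of all probe sets. The members' own shares were 17.4%, 20.7% and 18.2%, so a share of this size was not particular to the members. Regulators with at least 2 probe sets lower included Sfpq, a paraspeckle protein, in all 3 comparisons, and Rbm39, a U2AF-related coactivator, in APAP at 6 h and AMAP at 24 h. The helicase Ddx5 had 3 probe sets lower and 1 higher in APAP at 6 h, and 2 lower and 2 higher in AMAP at 24 h, so its probe sets opposed each other.

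At 2 h, where no comparison involves the 3 arrays, the ends of these lists were as follows. In the core the helicase Ddx39a read 0.72 higher in APAP by 1423643_at and Prpf19, the ubiquitin ligase of the catalytic spliceosome, 0.66 higher by 1460633_at, while Snrnp48 of the minor spliceosome read -0.64 by 1437180_at. Luc7l2, a U1-associated protein, read -0.60 and the kinase Prpf4b -0.41. Among regulators Celf2 read 1.10 higher in APAP by 1451154_a_at, with 0.81 and 0.83 in 2 others, while Rbmx, also called hnRNP G, read -1.05 by 1426863_at and Rbm39 -0.72. Srpk2, a kinase of SR proteins, read 6.14 in control and 5.13 in APAP by 1448603_at. In AMAP the cold-inducible Cirbp read 2.01 higher, the SR kinase Clk4 0.63 and Rbfox2 0.61, and Rbm39 read -0.73, Rbmx -0.59 and the RNA binder Tardbp -0.56. Core genes in AMAP stayed between -0.62 (Zmat5) and 0.43 (Prpf39), with Smndc1 at 0.32, Prpf19 at 0.28, Snrnp48 at -0.58 and Luc7l2 at -0.38. The core list had a median of 0.09 in APAP, with 68 of 103 expressed probe sets above 0 and 33 below, and 0.00 in AMAP.

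Of the marker lists of other cell types, 1 had a higher sum with both compounds than in the control of the same time, though not every marker in it was higher. A further 2 had their highest sums on the 3 arrays that stand apart, 1 of them barely so on AMAP 24 h. The log2 of the summed linear levels of the 4 cholangiocyte markers was 9.27 to 9.76 on the control arrays, 10.05 to 10.71 on the APAP arrays and 9.74 to 10.08 on the AMAP arrays, with Epcam near the dim end throughout. In AMAP it was 9.74, 9.98 and 10.08 at 2, 6 and 24 h, against 9.27, 9.57 and 9.76 in control. Krt7 and Krt19 were higher than in the control of the same time with both compounds throughout. Sox9 was lower in APAP at 24 h, 6.40 against 6.92, and in AMAP at 2 h (6.22 against 6.24) and 6 h (5.91 against 6.17). Epcam was lower at 6 h in APAP and AMAP, 4.20 and 4.11 against 4.24. In the remaining comparisons with control Sox9 and Epcam were higher. The sum of the 9 hepatocyte markers was 14.67 to 14.80, 14.58 to 14.89 and 14.56 to 14.74. The sum of the 5 endothelial markers was 6.28 on APAP 6 h, 6.11 on APAP 24 h and 5.86 on AMAP 24 h, against 5.63 to 5.73 on the other 6 arrays. That of the 5 macrophage markers was 6.78, 6.73 and 6.45 on these arrays, against 6.21 to 6.45 on the other 6, with every marker of both lists under the median level of the array. The macrophage sum of AMAP 24 h, 6.451, was barely above that of control 6 h, 6.445. Single markers did not all share the order of the sums: Ptprc was lowest of the 9 arrays on APAP 24 h, and Cdh5 on AMAP 24 h. For stellate cells and fibroblasts the sum was 10.07 to 10.74 in control, 9.64 to 10.47 in APAP and 10.26 to 10.88 in AMAP, most of it Dcn. The part of these sums in the members' values was not tested. All samples were of the line TAMH, so the sums describe RNA levels in that line and count no cells of other types. On the 3 arrays the lower quartile of all probe sets was also higher, at 3.81 to 3.92 against 3.50 to 3.63.

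All 47 member genes were found in the RefSeq gene table of assembly GRCm38.p6, on 17 chromosomes, and 42 had a promoter window there; Hnrnpll, Hnrnpul2, Sf3b4, Sf3b5 and Snrpb had none. The windows are 300 bases long and lie around the gene start, mostly before it. They are printed for Srsf3, Hnrnph2 and Rnpc3, chosen as an SR, an hnRNP and a minor-spliceosome gene whose probe sets were all lowest on the same 3 arrays. Capitals mark matches, on either strand, to the letters CCAAT of the CCAAT box, to GGGCGG of the GC box and to TATAAA of the TATA box.
Srsf3 chr17:29032410-29032709, plus strand: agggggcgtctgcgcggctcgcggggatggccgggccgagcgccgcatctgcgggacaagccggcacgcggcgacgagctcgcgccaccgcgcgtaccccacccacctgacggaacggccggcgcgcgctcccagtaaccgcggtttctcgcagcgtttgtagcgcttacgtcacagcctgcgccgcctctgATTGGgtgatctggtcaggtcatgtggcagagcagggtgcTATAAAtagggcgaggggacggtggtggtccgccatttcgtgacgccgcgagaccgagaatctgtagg
Hnrnph2 chrX:134600929-134601228, plus strand: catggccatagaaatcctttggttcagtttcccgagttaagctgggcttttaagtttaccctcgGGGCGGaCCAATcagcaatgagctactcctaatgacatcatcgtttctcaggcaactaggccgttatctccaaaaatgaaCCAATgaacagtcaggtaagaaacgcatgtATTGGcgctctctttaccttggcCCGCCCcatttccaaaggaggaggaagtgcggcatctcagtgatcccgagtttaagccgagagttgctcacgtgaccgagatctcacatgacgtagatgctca
Rnpc3 chr3:113630100-113630399, minus strand: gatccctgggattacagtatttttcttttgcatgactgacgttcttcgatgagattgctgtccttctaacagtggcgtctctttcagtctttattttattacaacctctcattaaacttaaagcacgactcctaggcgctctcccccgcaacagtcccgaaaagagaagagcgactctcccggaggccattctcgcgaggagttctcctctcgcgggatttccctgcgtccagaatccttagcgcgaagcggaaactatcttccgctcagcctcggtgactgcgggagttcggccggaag
That of Srsf3 is 68.3% G and C with 42 CpG and holds 1 CCAAT box and 1 TATA box match, that of Hnrnph2 is 49.0% with 14 CpG and holds 3 CCAAT box and 2 GC box matches, and that of Rnpc3 is 51.7% with 22 CpG and holds none. Over the 42 member genes the median was 60.4% G and C and 25 CpG, against 52.8% and 7 over all genes. Counted per gene with a match in any of its windows, the CCAAT box was found in 21 of the 42 member genes and in 41.1% of all 27025 genes, the GC box in 66.7% and 38.2%, the TATA box in 14.3% and 15.7%, and the CRE letters TGACGTCA, searched likewise, in 2.38% and 2.03%. A match describes the letters only.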

How the data were processed

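Expression was measured on 9 Affymetrix arrays, 1 per treatment and time. The deposited values are log2 levels per probe set. The submitters' processing notes name RMA and Affymetrix Expression Console, and the sources used here give neither a version nor whether the arrays were normalized together. RMA makes the distributions of probe intensities alike, which hides changes of total RNA, and it compresses differences of dim probe sets. Precision is limited by having only 9 arrays.

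The 64 control probe sets stayed out of all counts. The 20380 probe sets with 1 symbol in GEO's platform annotation could be members. Differences at 1 time were taken between 2 arrays and counted from 2-fold where the brighter array was at or above 5.65. Treatment was fitted with the time as a block by limma 3.58.1 under R 4.3.3 (4 residual degrees of freedom), and a slope on the dap ratio beside treatment and time (3 residual degrees of freedom), with Benjamini-Hochberg adjustment over 11313 probe sets. The scripts were tested on simulated data. Dishes were pooled or sampled in a way the labels do not state. With 1 array per treatment and time, treatment by time is taken as error. The p-values measure that spread between these arrays after the fitted terms, and not the spread of repeated arrays.

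The members and lists were chosen with earlier results of these data known, in which Qk, Rnpc3, Pnn and Hnrnph2 were among the lowest genes. Always named were Qk, Rnpc3 and Pnn. Added were, per comparison, the 3 highest and 3 lowest member genes 2-fold apart, genes with at least 2 probe sets 2-fold apart the same way, the 5 widest probe-set gaps, the 5 smallest p-values of the slope, and the steadiest member of each role. From the other lists the 3 highest and 3 lowest genes at 2 h were named.

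Alternatives were a 1.5-fold threshold, every probe set whatever its level, cyclic loess, median centring, 1 probe set per gene, no time block, spike-in covariates, and leaving out single arrays or times.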

Additional observations from a re-analysis of the deposited data

Results flagged for a closer look

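The members' median difference changed sign over the times in each comparison, and these changes of sign were not tested. For APAP against control it was 0.12 at 2 h, -0.19 at 6 h and -0.14 at 24 h. For AMAP against control it was -0.0012 at 2 h, 0.25 at 6 h and -0.20 at 24 h. For APAP against AMAP it was 0.12 at 2 h, -0.46 at 6 h and -0.047 at 24 h. The values at 2 h, of AMAP against control at 6 h and of APAP against AMAP at 24 h come from arrays with like dap ratios, and the others do not.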

How the results depend on the processing

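No paired analysis was possible because each group has 1 array, whose replicate number pairs nothing. At a 1.5-fold threshold the member counts that moved were 3 higher and 1 lower (APAP against control at 2 h), 1 lower (AMAP against control at 2 h), 1 higher (APAP against AMAP at 2 h), 6 higher and 30 lower (APAP against control at 6 h), 33 higher (AMAP against control at 6 h), 12 higher (APAP against AMAP at 6 h), 6 higher and 37 lower (APAP against control at 24 h), 4 higher (AMAP against control at 24 h), and 8 higher and 8 lower (APAP against AMAP at 24 h). Only counts that changed by more than 1.5 times, or from 0, are listed. The lower counts of APAP against AMAP at 6 h and AMAP against control at 24 h, 39 and 20 at 2-fold, changed by less. They stayed above the higher counts of these comparisons. No share over all probe sets is given at this threshold. With 1 probe set per gene, which by construction tests fewer, the 2-fold counts were 5 lower for APAP and 3 higher for AMAP at 6 h, 11 lower and 0 higher for APAP against AMAP at 6 h, 9 lower for APAP and 6 lower for AMAP at 24 h, and 0 higher for APAP against AMAP at 24 h; the 3 arrays were then lowest in 10 and highest in 5. Without the filter on low values 1 was higher for APAP against control at 6 h and 1 for AMAP against control at 24 h. Median centring gave 1 higher for APAP against control at 6 h, 1 higher for APAP against AMAP at 24 h, and 5 with the 3 arrays highest. Cyclic loess gave 1 higher for APAP against AMAP at 6 and at 24 h, turned the median of AMAP against control at 2 h to 0.011, and gave 8 calls of the slope on the AFFX-r2-Bs-dap ratio, which had 36 calls without a time block. Leaving out single arrays gave 0 to 17 calls for that slope and 0 to 1 for the AFFX-DapX slope, the 1 without control 24 h. Over all 11313 expressed probe sets the AFFX-r2-Bs-dap slope had 217 calls with cyclic loess and 2335 without a time block. Leaving out single arrays gave it 0 to 417 calls over all, and the AFFX-DapX slope 0 to 23. With a 1.5-fold gap, 20% of member genes disagreed in APAP against control at 2 h, 63.3% in APAP and 63.3% in AMAP against control at 6 h, 66.7% in AMAP against control at 24 h and 53.3% in APAP against AMAP at 24 h. No share over all genes is given at this gap. The cause of these moves was not tested beyond the construction named. The settings of the slope on the AFFX-r2-Bs-dap ratio, that ratio as a covariate, and the alternatives to the order of arrays were chosen after seeing the data. Without replicate arrays no difference at a single time has an error of its own.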
